A study of Homo sapiens with 6 samples.

Results

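The genes described here encode 9 proteins of the phosphoinositide 3-kinase (PI3K), AKT and mTOR pathway: PIK3CA, PIK3CB, PIK3R1, AKT1, AKT2, MTOR, RPTOR, RICTOR and TSC1. They were taken by gene name from an expression table of 27918 genes and loci, and each of the 9 names was found in 1 row. HCT-116, an established human colorectal carcinoma line that carries an activating mutation in PIK3CA, was transfected with 10 nM of a GapmeR against the long noncoding RNA CASC9 (GapC9) or with a negative control GapmeR (GapNC). A GapmeR is an antisense oligonucleotide that directs RNase H to cut the RNA it pairs with. Poly(A) RNA was sequenced in 3 libraries for each group, and the labels name no other difference between the groups. Both 24 h and 48 h are named as the time after transfection, so the time is uncertain. The labels do not say that replicates came from separate cultures, so p-values measure the spread between these libraries.

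Class I PI3K is a heterodimer of a catalytic subunit, such as p110α (PIK3CA) or p110β (PIK3CB), and a regulatory subunit, such as p85α (PIK3R1). It makes a membrane lipid that recruits the kinases AKT1 and AKT2, and AKT in turn restrains the TSC complex of TSC1 and TSC2, which switches off the small GTPase RHEB. RHEB activates the kinase mTOR (MTOR) in mTOR complex 1, where RPTOR holds the substrates and cell growth and translation are controlled. In mTOR complex 2 the same kinase is joined by RICTOR and phosphorylates AKT. The pathway is often activated in colorectal cancer, and most of its control is exerted on proteins, which these data do not measure.

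The targeted RNA gave no check of the labels. CASC9 was listed at 0, 0.0108 and 0 FPKM in GapNC replicates 1, 2 and 3 and at 0.0528, 0.107 and 0 FPKM in GapC9 replicates 1, 2 and 3 (p = 0.4, exact two-sided permutation test). Its level was not lower in GapC9, but at values this near 0 a fall could not have been seen. Every direction given here thus rests on the labels. By RT-qPCR, which is not part of these data, the study reported reduced CASC9 in HCT-116 cells given the GapmeR. FPKM are fragments scaled to transcript length and library size. Counts were not used here. If the commonest step between low values is 1 fragment, the libraries had similar depths, with a step of 0.0409 to 0.0439 FPKM for 1 kb of transcript. The members then rested on about 84.5 fragments (PIK3R1) to 2804 fragments (AKT1) in a library, taking the longest listed transcript as the length. Of 7 colon epithelial markers, EPCAM, KRT8, KRT18, KRT19, CDH1 and CDX2 averaged 2.04 FPKM or more in both groups. VIL1 stayed at 0.0481 FPKM or less. Of the markers of other cells, PTPRC, CD3E and COL1A2 were at 0.0155 FPKM or less in every library, PDGFRB and CD14 at 0.113 FPKM or less, and COL1A1 at 1.06 to 1.54 FPKM. DCN and HBB had no row. In bulk RNA, fewer cells with a transcript and less of it per cell cannot be told apart. GapNC replicate 1 stood furthest apart in GC content. Its deviations from the mean of each locus followed GC with a Spearman correlation of 0.63 over 10117 loci. GapC9 replicates 2 and 3 deviated the other way, with −0.34 and −0.39. The correlation was 0.010 in GapNC replicate 2, −0.11 in GapNC replicate 3 and 0.026 in GapC9 replicate 1.

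RPTOR and MTOR fell in the libraries labelled GapC9, and these were the 2 of the 9 members past the test. TSC1 was higher without passing the adjusted threshold, and PIK3CA, PIK3CB, PIK3R1, AKT1, AKT2 and RICTOR did not pass it either. The test was limma on log2(FPKM + 0.1), two-sided, with Benjamini-Hochberg adjustment over the 16028 loci that averaged at least 0.1 FPKM. All 9 members were tested. At an adjusted p under 0.05, 0 members were higher and 2 lower, where 6.99% of all loci tested were called, 1.89% higher and 5.1% lower. At an unadjusted p under 0.05, 1 member was higher (TSC1) and 3 lower (PIK3R1, MTOR and RPTOR), against 25.9% of all loci, 9.09% higher and 16.8% lower. The groups did not overlap for 1 higher member (TSC1) and 4 lower ones (PIK3R1, AKT2, MTOR and RPTOR), against 34.2% of all loci, 12.6% higher and 21.6% lower. With 9 members, these counts are described and not tested. The median log2 fold change of the members was −0.23 and that of all loci tested −0.076. The added 0.1 FPKM makes the fold of weakly expressed genes appear smaller.

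**Figure D1:**
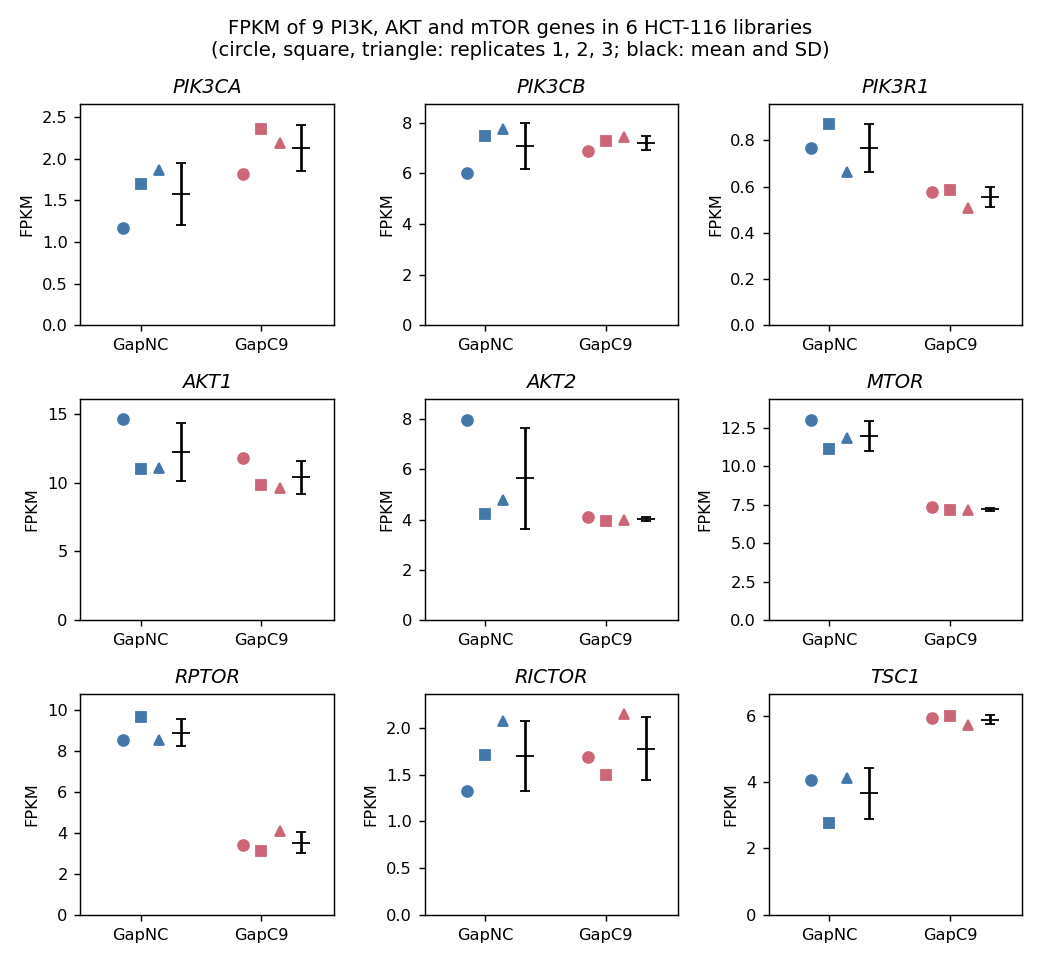
FPKM of each member (vertical axis, from 0) in the 3 GapNC and 3 GapC9 libraries, with circles, squares and triangles for replicates 1, 2 and 3 and black marks for the mean and SD. RPTOR lies between 8.53 and 9.69 FPKM in GapNC and between 3.10 and 4.09 FPKM in GapC9, and MTOR and TSC1 also separate the groups, in opposite directions.

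RPTOR (locus MSTRG.8671 of the table), the scaffold that defines mTOR complex 1, changed most. Its FPKM was 8.53, 9.69 and 8.53 in GapNC and 3.41, 3.10 and 4.09 in GapC9. The lowest control library held more than double the highest GapC9 library. The mean fell from 8.92 ± 0.671 to 3.53 ± 0.503 FPKM (SD, n = 3), which is 39.6% of the control. On the log2 scale the difference was −1.32 (standard error 0.14, 95% interval −1.66 to −0.98, limma adjusted p = 0.0159). It was the only member past the thresholds of the study's methods, a ratio of means of at most 0.5 and an unadjusted p under 0.05, which 4.32% of all loci passed downwards. The upward thresholds (a ratio of at least 2) were passed by 2.1% of loci and 0 members, and the 2 directions together by 6.42%.

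MTOR (MSTRG.222), the catalytic kinase of both complexes, was at 13.04, 11.10 and 11.81 FPKM in GapNC and at 7.33, 7.18 and 7.13 FPKM in GapC9. The 3 GapC9 libraries lay close together and well below all controls. The mean fell from 12.0 ± 0.980 to 7.21 ± 0.103 FPKM (SD, n = 3), which is 60.2% of the control. On the log2 scale the difference was −0.72 (standard error 0.10, 95% interval −0.97 to −0.47, limma adjusted p = 0.0239). MTOR-AS1, which overlaps 1.82% of the exonic bases of MTOR on the opposite strand, was at 0.0244 FPKM or less. With 1 library left out, both calls were kept in 1 of the 6 fits and lost in the other 5. Calls were lost over all loci as well. Of all loci tested, 5.09% passed without GapNC replicate 1, against 6.99% with all 6 libraries. In the other 5 fits 0.212% to 0.656% passed. Without GapNC replicate 1 the limma adjusted p was 0.0289 for RPTOR and 0.0311 for MTOR. It was 0.0628 and 0.0701 without GapNC replicate 2, and 0.0529 and 0.0680 without GapNC replicate 3. It was 0.0578 and 0.0806 without GapC9 replicate 1, 0.0718 and 0.106 without GapC9 replicate 2, and 0.0550 and 0.0959 without GapC9 replicate 3. The fold change itself stayed between −1.43 and −1.23 for RPTOR and between −0.77 and −0.66 for MTOR in these fits, and the unadjusted p was at most 0.000576 for RPTOR and 0.00274 for MTOR.

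RICTOR (MSTRG.14186), the scaffold that defines mTOR complex 2, was at 1.32, 1.71 and 2.07 FPKM in GapNC and at 1.69, 1.49 and 2.15 FPKM in GapC9. The groups overlapped widely. The log2 fold change was 0.065 (standard error 0.21, limma adjusted p = 0.880), with a 95% interval of −0.46 to 0.59. Its sign was negative without GapNC replicate 1 (−0.093), without GapC9 replicate 3 (−0.073) and after a correction for GC content (−0.064).

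A ratio of 2 members inside a library does not depend on how the libraries are scaled to each other. It can still depend on GC content, which the libraries followed to different degrees. GC content was 59.1% for RPTOR, 49.8% for MTOR and 37.7% for RICTOR, and the ratios were not corrected for it. RPTOR to RICTOR was 6.44, 5.68 and 4.12 in GapNC and 2.02, 2.08 and 1.90 in GapC9. The GapC9 libraries held less RPTOR for each RICTOR than any control. RPTOR to MTOR was 0.655, 0.874 and 0.722 in GapNC and 0.465, 0.432 and 0.573 in GapC9, so RPTOR was also lower relative to the kinase. RICTOR to MTOR was 0.102, 0.154 and 0.175 in GapNC and 0.230, 0.208 and 0.302 in GapC9. The groups did not overlap for these 3 ratios, which were chosen after the values were seen. The ranges of RPTOR, MTOR and RICTOR in the 2 groups already fixed this separation. Each ratio gave p = 0.1 in an exact two-sided permutation test, the smallest that 3 against 3 libraries allow. The ratios are thus a description and add no test.

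The promoters of MTOR and RPTOR are shown because these were the called members. They are from RefSeq (GRCh38.p14), whose promoter table matched 9 of the 9 members. The MTOR gene is chr1:11106535-11262507 (minus strand) and the RPTOR gene chr17:80544819-80966371 (plus strand) in GENCODE v29, GRCh38. The MTOR sequence covers chr1:11262552-11262801, the 250 bases before the RefSeq start. The RPTOR sequence covers chr17:80544588-80544818, 231 bases, since the last 19 bases before the start lie in an exon of GENCODE. Both are written 5′ to 3′ on the strand of the gene. Capitals mark the CCAAT box, searched as those 5 letters, and the GC box, searched as GGGCGG, on either strand.
MTOR: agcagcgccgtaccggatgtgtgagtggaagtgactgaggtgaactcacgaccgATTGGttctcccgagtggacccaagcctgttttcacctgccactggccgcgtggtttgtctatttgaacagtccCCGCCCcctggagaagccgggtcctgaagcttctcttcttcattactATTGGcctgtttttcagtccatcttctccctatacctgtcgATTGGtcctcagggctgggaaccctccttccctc
RPTOR: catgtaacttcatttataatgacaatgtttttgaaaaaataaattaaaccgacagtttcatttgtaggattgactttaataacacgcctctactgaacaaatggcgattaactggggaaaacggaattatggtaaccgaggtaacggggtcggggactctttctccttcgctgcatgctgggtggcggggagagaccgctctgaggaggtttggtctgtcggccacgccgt
In MTOR the CCAAT letters stood 3 times, all on the opposite strand, at positions −196 to −192, −75 to −71 and −34 to −30 counted back from the start, beside 1 GC box at −122 to −117. In RPTOR neither was found in the 250 bases. At least 1 CCAAT was found in 32.0% of 35116 promoters of that length, at least 3 in 2.93%, and a GC box in 42.6%. The letters TGTTTAC (FOXO), TGACGT (core of a cAMP response element) and CACGTG (E-box) were searched on both strands as well. Each was found 0 times in both promoters, and in 2.98%, 7.1% and 6.34% of all promoters. No motif searched was thus shared by the 2 genes that fell, and a match describes letters only.

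TSC1, which stabilizes the TSC complex that restrains mTOR complex 1, went the other way. Its FPKM was 4.06, 2.77 and 4.13 in GapNC and 5.93, 5.98 and 5.73 in GapC9. All GapC9 libraries lay above all controls and varied little, whereas GapNC replicate 2 was low. The mean was 3.66 ± 0.770 in GapNC and 5.88 ± 0.132 FPKM in GapC9 (SD, n = 3). On the log2 scale the difference was 0.69 (standard error 0.18, 95% interval 0.26 to 1.12, limma adjusted p = 0.0727). The adjusted p lay between 0.0356 and 0.203 over the alternatives and passed after the correction for GC content alone. Leaving out GapNC replicate 2 gave 0.51 (limma adjusted p = 0.107).
The partner of TSC1 fell instead. TSC2, which carries the GTPase-activating domain for RHEB, was at 7.33, 5.43 and 5.46 FPKM in GapNC and at 3.13, 2.88 and 2.76 FPKM in GapC9, with no overlap. Its log2 fold change was −1.02 (standard error 0.15, limma adjusted p = 0.0269). With 1 library left out, TSC2 passed in 1 of the 6 fits, and its adjusted p lay between 0.0296 and 0.106. RHEB, the GTPase that the complex controls, had a log2 fold change of 0.039 (95% interval −0.27 to 0.35). MTOR to TSC1 inside a library was 3.21, 4.01 and 2.86 in GapNC and 1.24, 1.20 and 1.24 in GapC9. This ratio had to separate the groups, since MTOR was lower and TSC1 higher in every GapC9 library than in any control. It is given as a description and adds no test.

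**Figure D2:**
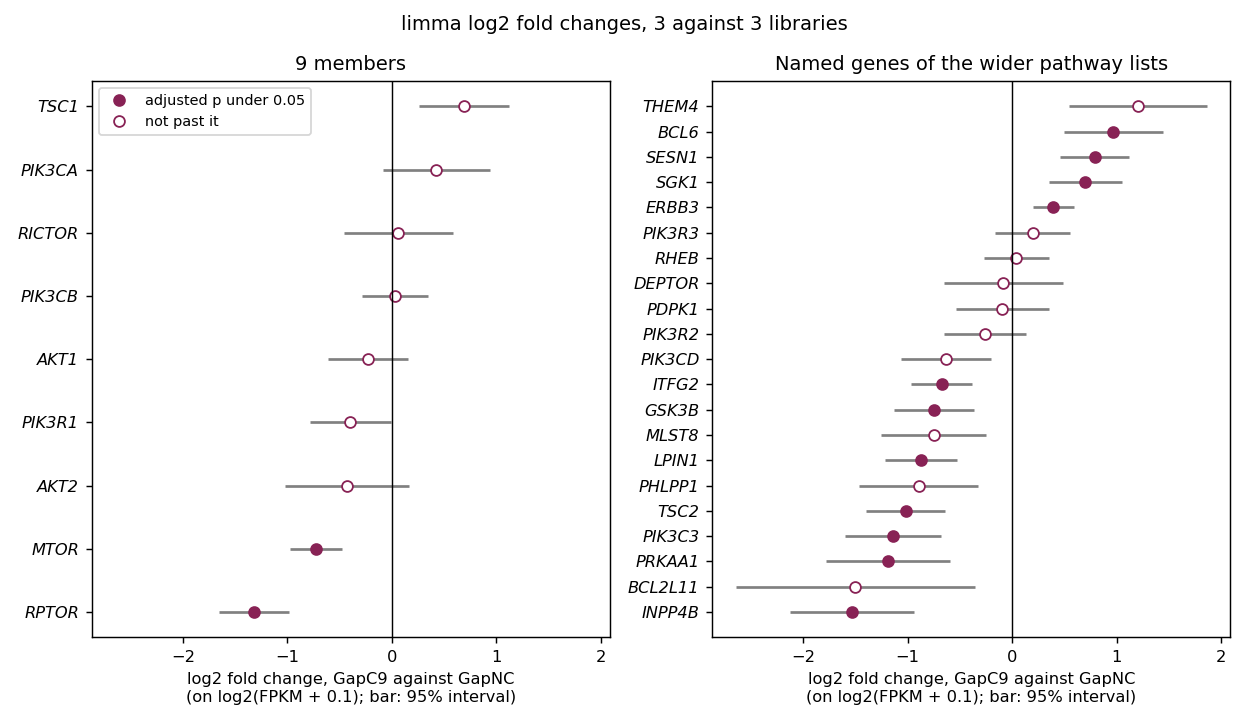
Log2 fold change of GapC9 against GapNC on log2(FPKM + 0.1), with 95% intervals from limma, for the 9 members (left) and the named genes of the wider pathway (right), 3 libraries in each group. Filled points passed an adjusted p under 0.05. RPTOR (−1.32) and MTOR (−0.72) are the filled members, and TSC2 (−1.02) is filled while TSC1 (0.69) is open.

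Among the class I PI3K subunits no member passed the adjusted threshold. PIK3R1, the regulatory subunit p85α, was at 0.767, 0.870 and 0.662 FPKM in GapNC and at 0.576, 0.585 and 0.508 FPKM in GapC9. The GapC9 libraries lay just below the lowest control. Its log2 fold change was −0.40 (standard error 0.16, 95% interval −0.79 to −0.0061, limma adjusted p = 0.187). PIK3R1 was the least abundant member, and a filter at a mean of 1 FPKM removed it.
PIK3CA, the catalytic subunit p110α, was at 1.16, 1.70 and 1.87 FPKM in GapNC and at 1.82, 2.36 and 2.20 FPKM in GapC9. The groups overlapped through GapNC replicate 3 and GapC9 replicate 1. Its log2 fold change was 0.43 (standard error 0.21, 95% interval −0.086 to 0.94, limma adjusted p = 0.260), and 0.23 without GapNC replicate 1. PIK3CA shares 35.8% of its exonic bases with KCNMB3 on the opposite strand, and the sources used here do not say whether strand was counted. A near-identical partial copy of PIK3CA also exists, so its value is uncertain.
PIK3CB, the catalytic subunit p110β, was at 6.02, 7.48 and 7.75 FPKM in GapNC and at 6.90, 7.27 and 7.45 FPKM in GapC9. The GapC9 values lay inside the range of the controls. Its log2 fold change was 0.033 (standard error 0.13, limma adjusted p = 0.902), with an interval of −0.28 to 0.35 and a negative sign after the correction for GC content (−0.045). PIK3CB to PIK3CA inside a library was 5.18, 4.41 and 4.14 in GapNC and 3.79, 3.07 and 3.39 in GapC9. The groups did not overlap for this ratio either, though neither gene passed. A ratio that separates the groups was thus not particular to the called members.

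The AKT kinases, which carry the signal from PI3K to the TSC complex, did not pass the test either. AKT1 was at 14.65, 10.98 and 11.07 FPKM in GapNC and at 11.8, 9.85 and 9.57 FPKM in GapC9. GapNC replicate 1 was the highest library and the groups overlapped. The log2 fold change was −0.23 (standard error 0.16, 95% interval −0.61 to 0.16, limma adjusted p = 0.419), and it was 0.040 after the correction for GC content.
AKT2 was at 7.96, 4.22 and 4.79 FPKM in GapNC and at 4.11, 3.94 and 3.99 FPKM in GapC9. The groups did not overlap, but replicates 2 and 3 of GapNC lay near the GapC9 libraries and replicate 1 far above them. The log2 fold change was −0.43 (standard error 0.24, 95% interval −1.02 to 0.16, limma adjusted p = 0.319), and −0.16 without GapNC replicate 1. AKT1 to AKT2 inside a library lay between 1.84 and 2.60 in GapNC and between 2.40 and 2.86 in GapC9, with overlap (p = 0.4, exact permutation test).

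FPKM are per length, so levels may be ordered between genes. In GapNC the order of mean FPKM was AKT1 (12.2), MTOR (12.0), RPTOR (8.92), PIK3CB (7.08), AKT2 (5.66), TSC1 (3.66), RICTOR (1.70), PIK3CA (1.58) and PIK3R1 (0.766). The libraries of AKT1 and MTOR, of PIK3CB and AKT2, and of RICTOR and PIK3CA overlapped, and other neighbors did not. In GapC9 the order was AKT1 (10.4), MTOR (7.21), PIK3CB (7.21), TSC1 (5.88), AKT2 (4.01), RPTOR (3.53), PIK3CA (2.13), RICTOR (1.78) and PIK3R1 (0.556). Here MTOR and PIK3CB, AKT2 and RPTOR, and PIK3CA and RICTOR overlapped. RPTOR thus stood above PIK3CB, AKT2 and TSC1 in every control library and below PIK3CB and TSC1 in every GapC9 library, as shown in the plot of FPKM by library.

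The rest of the pathway was read from 120 other genes in 9 hand-written lists, of which 117 had a row and 111 were tested. At a limma adjusted p under 0.05, 4 of the 111 were higher and 7 lower in GapC9. Among all loci tested, 1.89% were higher and 5.1% lower. Neither direction was tested against these shares. Before adjustment, limma gave a p below 0.05 to 14 genes that rose and 25 that fell, out of the 111. Among all loci tested, 9.09% rose and 16.8% fell by that measure. The counts of the single lists are to be read beside these shares and were not tested against them. The median log2 fold change of the 111 was −0.12. The joined names of 16 loci make their values uncertain.
Of the other subunits of the mTOR complexes and their assembly factors, 8 were tested and 0 passed the adjusted threshold in limma, with 2 higher and 4 lower at an unadjusted p under 0.05. MLST8, which is shared by both complexes, was at 13.2, 12.4 and 9.21 FPKM in GapNC and at 8.37, 5.57 and 6.63 FPKM in GapC9. The groups did not overlap and the log2 fold change was −0.75 (standard error 0.21, adjusted p = 0.0870 by limma). DEPTOR, an inhibitor of mTOR, averaged 0.309 FPKM in GapNC and 0.281 FPKM in GapC9, with a log2 fold change of −0.085 (95% interval −0.66 to 0.49).
Of the 12 genes of the TSC complex, RHEB and energy sensing, 0 rose and 2 fell past the adjusted threshold of limma, and 1 was higher and 4 lower at an unadjusted p under 0.05. Beside TSC2 the gene that fell was PRKAA1, a catalytic subunit of AMPK, from 11.4 ± 3.12 to 4.85 ± 0.831 FPKM (SD, n = 3) with a log2 fold change of −1.19 (adjusted p = 0.0454). Of the amino acid sensors at the lysosome, 28 were tested, with 3 higher and 4 lower at an unadjusted p under 0.05. SESN1, a sestrin that restrains mTOR complex 1, rose (log2 fold change 0.79, adjusted p = 0.0314) and ITFG2, part of the KICSTOR complex, fell (−0.68, adjusted p = 0.0347).
Of the other PI3K subunits 7 were tested, and 0 rose and 1 fell past the adjusted threshold of limma, with 1 higher and 2 lower at an unadjusted p under 0.05. PIK3C3, the class III enzyme of autophagy, was at 1.17, 1.73 and 1.75 FPKM in GapNC and at 0.613, 0.672 and 0.627 FPKM in GapC9, and its log2 fold change was −1.14 (standard error 0.19, limma adjusted p = 0.0308). PIK3CD (−0.64, adjusted p = 0.0886), PIK3R2 (−0.26, adjusted p = 0.359) and PIK3R3 (0.20, adjusted p = 0.452), the other class I subunits named by the rule, did not pass.
Of the 10 brakes on PI3K and AKT, 0 rose and 1 fell (INPP4B) past the adjusted threshold of limma, with 0 higher and 3 lower at an unadjusted p under 0.05. INPP4B, a phosphatase of a PI3K product, was at 2.38, 2.37 and 2.84 FPKM in GapNC and at 0.539, 1.03 and 0.920 FPKM in GapC9, and its log2 fold change was −1.54 (standard error 0.24, adjusted p = 0.0289). PHLPP1, an AKT phosphatase, passed the fold and unadjusted thresholds but not the adjusted one (−0.90, adjusted p = 0.0759).
Of the receptors and adaptors 12 were tested, and 1 rose while 0 fell past the adjusted threshold of limma, with 1 higher and 1 lower at an unadjusted p under 0.05. The gene that rose was ERBB3 (0.39, adjusted p = 0.0455), whose locus is joined with PA2G4. Of 5 genes of AKT activation, 2 were higher and 0 lower at an unadjusted p under 0.05 in limma. SGK1, an AKT relative, rose from a mean of 0.409 to 0.727 FPKM (0.70, adjusted p = 0.0447), THEM4 was higher past the fold and unadjusted thresholds (1.21, adjusted p = 0.0542), and PDPK1, which phosphorylates AKT, was at −0.095 (95% interval −0.54 to 0.35).
Of 20 substrates and effectors, 0 rose and 2 fell past the adjusted threshold of limma, with 1 higher and 5 lower at an unadjusted p under 0.05. Those past the adjusted threshold were LPIN1 (−0.87, adjusted p = 0.0303) and GSK3B, a kinase that AKT inhibits (−0.75, adjusted p = 0.0467). Of 9 tested genes known to be induced by FOXO factors, which AKT keeps out of the nucleus, 3 were higher and 2 lower at an unadjusted p under 0.05. BCL6 rose (0.97, adjusted p = 0.0428). BCL2L11 was lower past the fold and unadjusted thresholds (−1.50, adjusted p = 0.113). With 1 library left out, PIK3C3 and PRKAA1 each passed in 1 of the 6 fits, as TSC2 did, and the other 8 called genes of the lists in 0.

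GC content moved with the fold changes, and the share of lower calls differed by gene length, so these are given beside the members. Over 10117 loci of at least 1 FPKM, the log2 fold change followed GC content with a Spearman correlation of −0.34, across loci that share the same libraries. In 5 equal bins by GC, its median went from 0.15 in the lowest to −0.32 in the highest. RPTOR transcripts have 59.1% GC. Among 1322 loci within 2 percentage points of it the median log2 fold change was −0.25, and 1.82% lay lower than RPTOR. MTOR has 49.8% GC, with a median of −0.061 among 1369 such loci, of which 10.2% lay lower. TSC1 has 48.3% GC, with a median of −0.031 among 1443 loci, of which 94.8% lay lower. AKT1 (60.2% GC, log2 fold change −0.23) lay near the median of its 1239 neighbors, −0.27. After the correction of each library for GC, the log2 fold change was −1.08 for RPTOR (adjusted p = 0.0181, 0.0113 to 0.0718 over the alternatives) and −0.63 for MTOR (adjusted p = 0.00679, 0.00679 to 0.106 over the alternatives). RPTOR, MTOR and TSC1 thus kept their directions with the correction, and the part of GC content in their values was not tested further.

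By genomic span, RPTOR was the longest member at 421.6 kb, followed by PIK3CB (182.2 kb), MTOR (156.0 kb), RICTOR (136.5 kb), PIK3CA (92.0 kb) and PIK3R1 (86.1 kb). TSC1 spans 55.5 kb, AKT2 55.2 kb and AKT1 26.4 kb. The 9199 loci with 1 annotated gene and at least 1 FPKM were split into 5 equal bins by span, and 16.6% of the longest bin (85.2 kb or more) were lower at an adjusted p under 0.05. The share was 7.66% in the next bin and 3.59% to 4.35% in the 3 shorter ones. Higher calls made up 1.47% to 3.05% of a bin. Span and log2 fold change had a Spearman correlation of −0.062 over these loci, and the median log2 fold change of the bins, from shortest to longest, was −0.13, −0.023, 0.013, −0.039 and −0.21, with no steady trend. RPTOR and MTOR were in the longest bin, as were PIK3CA, PIK3CB and RICTOR, which did not pass. The part of gene length in the fall of RPTOR and MTOR was not tested.

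The loci most like RPTOR across the 6 libraries, among 9284 with 1 gene name and at least 1 FPKM, were KDM4C (Pearson r = 0.9986), WNK1 (0.9971), TEX2 (0.9970), TAF3 (0.9967) and R3HDM2 (0.9957) on log2(FPKM + 0.1). A correlation above 0.95 was reached by 424 of these loci, over 6 libraries in 2 groups, and is given as a description.

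**Figure D3:**
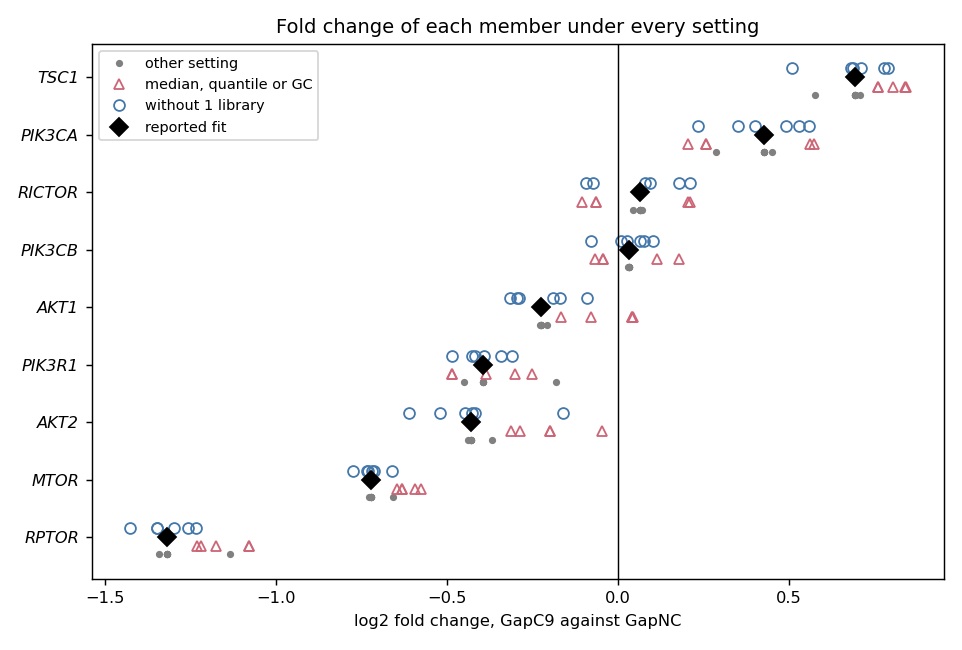
Log2 fold change of each member (horizontal) in the reported fit (black diamond), with 1 library left out (blue circles), under median scaling, quantile normalization or GC correction (red triangles) and under other settings (grey dots). RPTOR, MTOR, AKT2 and PIK3R1 stay below 0 and TSC1 and PIK3CA above it, while RICTOR, PIK3CB and AKT1 cross it.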

How the data were processed

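Poly(A) RNA of HCT-116 cells was sequenced in pairs of reads, with 3 GapNC and 3 GapC9 libraries grouped by their titles. Per the methods, the authors mapped reads to the UCSC human genome with HISAT and estimated FPKM with StringTie. The deposited file used here is 1 table of FPKM. The submitters' processing notes name Bowtie 0.12.2, HISAT2 2.0, StringTie 1.3.0 and, with no role, the mouse build mm8. The authors' edgeR calls were not used, and 0 sample columns were left unused. FPKM are relative, so a rise in abundant RNAs lowers all others, and StringTie can join neighboring genes.

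In R 4.3.3, limma 3.58.1 (lmFit, eBayes with trend) was fitted to log2(FPKM + 0.1) of the 16028 loci whose mean reached 0.1 FPKM, all 6 libraries together, two-sided, with Benjamini-Hochberg adjustment. The 9 members, the lists and the tests were chosen with earlier results of these data known. Of the lists, genes were named that passed the adjusted p, or the fold (2 or 0.5) and unadjusted p under 0.05, together with TSC2, PIK3CD, PIK3R2, PIK3R3, PDPK1, RHEB, MLST8 and DEPTOR. Other genes of that rule are not reported here. GC content and spans came from GENCODE v29 (GRCh38), matched by transcript for 15909 of the loci tested. The build of the table is not given beyond UCSC human, so positions are those of GENCODE and RefSeq. The fit was tested on simulated data before use. Of 200 simulated loci with a true log2 change of 1 in size, limma recovered 176 at an unadjusted p under 0.05 and 50 at an adjusted p under 0.05. A change of that size can thus miss the adjusted threshold. Alternatives were other pseudocounts (1 and 0.01), filters (1 FPKM or none), median and quantile scaling, a lowess GC correction (span 0.3), limma with robust variances or with no trend, each library left out and a replicate block. A GC correction with the block, or without GapNC replicate 1, was added after the values were seen. Figures were drawn with matplotlib 3.10.9 in Python 3.11.15.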

Additional observations from a re-analysis of the deposited data

How the results depend on the processing

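The number of members past an adjusted p under 0.05 was 2 in the reported fit and in most settings. It was 3 after the GC correction, 0 to 2 with 1 library left out, 0 with the replicate block and 0 with the GC correction and the block. RPTOR alone passed the fold and unadjusted p in every setting. In the wider lists the number past the adjusted p was 11, against 1 with no filter, 7 after quantile normalization, 27 after the GC correction, 0 with the replicate block, 0 with the GC correction and the block, and 0 to 3 with 1 library left out. The cause of these changes was not tested. The block and a missing library leave fewer degrees of freedom, and the part of that in the lost calls was not tested either. Same-numbered libraries deviated together with correlations of 0.102, 0.0497 and 0.0272, and differently numbered ones with −0.106 to 0.0623. Not every library correlated best with its own number. Correlations this weak do not settle whether the numbers pair the samples or mark a batch.

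The sign turned for PIK3CB (−0.045), AKT1 (0.040) and RICTOR (−0.064) after the GC correction with or without the block. With that correction and without GapNC replicate 1 the values were −0.068, 0.043 and −0.11. With 1 library left out, PIK3CB lay between −0.078 and 0.10 and RICTOR between −0.093 and 0.21. Over all loci, 303 were higher and 817 lower at the adjusted p, against 483 and 427 after median scaling, which moved the median of all loci from −0.076 to 0.069. Relative to that, MTOR (−0.58), RPTOR (−1.17) and TSC1 (0.84) kept their directions. Adjusted counts were 146 higher and 346 lower with no filter, and 1135 and 1280 after the GC correction. With the replicate block they were 0 and 0 (328 and 672 at the fold and unadjusted p). With the GC correction and the block they were 0 and 1. Without GapNC replicate 1 they were 241 and 573. With any other single library left out they were 16 to 35 and 17 to 70. With a filter at 1 FPKM, 116 were higher and 380 lower at the fold and unadjusted p, against 336 and 693. Values under 1 FPKM rest on fewer fragments for a given transcript length. This limits PIK3R1, DEPTOR and SGK1 in both groups and PIK3C3, INPP4B, ITFG2 and PHLPP1 in GapC9. For PIK3R1, with its long transcript, the estimate was still about 84.5 to 143 fragments in a library.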
